A study of Homo sapiens with 4 samples.

Results

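The genes named beside WDR5 peaks in THP-1 cells were analyzed by whether the same cells carried histone H3 lysine 4 trimethylation (H3K4me3) at the gene. All 316 gene symbols of the THP-1 WDR5 peak list were taken, out of 18576 symbols named in any of the 4 peak lists of the study. They were divided by their lines in the THP-1 H3K4me3 list, where a line pairs 1 peak with 1 transcript. The exon-flagged class held 201 symbols with an H3K4me3 peak in an exon of the gene, the class with other lines only held 84 symbols with a mark in an intron or up to 20 kb away, and the class with no line held 31. The 316 symbols came from 225 distinct WDR5 peaks, of which 53 peaks named 2 or more symbols, so symbols are not independent of each other.

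WDR5 is a WD40-repeat protein and a core subunit of the MLL and SET1 complexes, which methylate lysine 4 of histone H3. The trimethylated form, H3K4me3, lies around the transcription start sites of active genes and is used as a mark of active promoters. In leukemia with a rearranged MLL gene, H3K4 methylation is studied as part of the machinery that keeps myeloid and stem cell genes on.

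ChIP-seq was performed with a WDR5 antibody (ab56919) and an H3K4me3 antibody (ab8580) in THP-1 and RS4;11 cells, 1 sample for each antibody and line. THP-1 is a monocytic acute myeloid leukemia line and RS4;11 is a B-precursor acute lymphoblastic leukemia line. Both are described as MLL-rearranged. Each is an established line, so it stands for the leukemia of 1 person. Both were grown in RPMI1640 with 10% FBS, and no treatment, knockdown or other agent is given for any sample. The labels call the THP-1 WDR5 sample lymphoblastic and the RS4;11 H3K4me3 sample myeloid, and the samples were grouped here by cell line and antibody. With 1 sample a group there was no test of any difference, and intervals given below are 95% Wilson intervals for counting error only. Depth is unknown, because the lists give no reads, heights or p-values.

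The H3K4me3 lists were compared with lineage markers. In THP-1 cells the mark spanned the transcript start (an upstream and an exon flag for the same transcript) of 9 of 15 monocyte and granulocyte markers, beside 5 of 15 in RS4;11 cells. Of 12 B-lineage markers it did so for 3 in THP-1 and 4 in RS4;11. CD79A, a chain of the B-cell receptor, was marked at the start in RS4;11 only, whereas PAX5 and EBF1, B-lineage transcription factors, were marked at the start in THP-1 only. For 6 T-lineage markers the number was 1 in THP-1 and 2 in RS4;11. The B-lineage list did not separate the lines.

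The lists have a limit on what a missing mark means. ACTB, GAPDH, B2M, EEF1A1 and TUBA1B, housekeeping genes that were chosen after the values were seen, had no exon-flagged H3K4me3 entry in either cell line, 0 of 5. No listed mark was wider than 4446 bp in THP-1 or 4478 bp in RS4;11, as the plot of mark widths shows. Ribosomal protein genes had an exon-flagged mark in 53 of 74 cases in THP-1 and 62 of 74 in RS4;11. A symbol with no line is therefore a symbol not listed, which is not the same as a promoter without the mark. The reason was not tested.

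**Figure D1:**
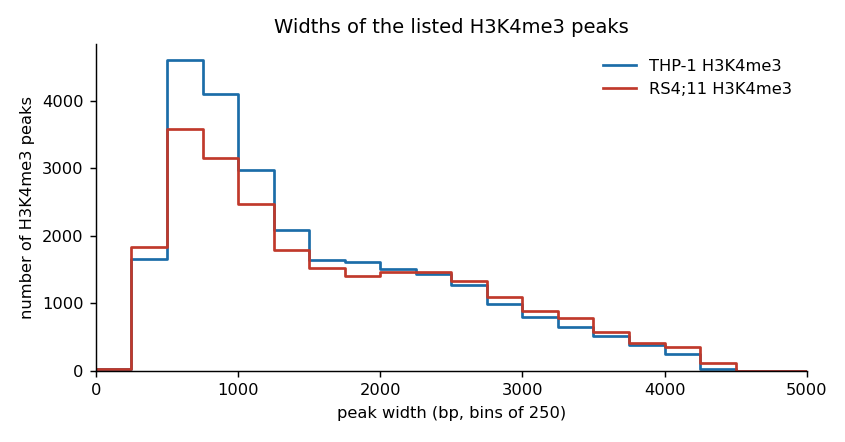
Number of listed H3K4me3 peaks (vertical axis) by peak width in bp, in bins of 250 bp, for the THP-1 list (blue) and the RS4;11 list (red). In THP-1, 385 peaks were 3750 to 4000 bp wide, 32 were 4250 to 4500 bp wide and none was wider.

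To show the sequence under the kinds of WDR5 peak described below, 200 bases near the centre are given for 7 of them. They were read from the hg19 plus strand with no annotated untranslated base, and every CpG dinucleotide is in capitals. The first group is from WDR5 peaks that lie under a wide H3K4me3 peak (1000 bp or more): chr10:75541105-75541304 upstream of CHCHD1 (3 CpG), chr11:9286172-9286371 in an intron of DENND5A (8 CpG) and chr4:99064853-99065052 upstream of C4orf37 (7 CpG).
CHCHD1 upstream: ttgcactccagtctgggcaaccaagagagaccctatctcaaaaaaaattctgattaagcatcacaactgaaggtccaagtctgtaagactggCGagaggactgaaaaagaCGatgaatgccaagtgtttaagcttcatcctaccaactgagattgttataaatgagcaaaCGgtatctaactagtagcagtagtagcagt
DENND5A intron: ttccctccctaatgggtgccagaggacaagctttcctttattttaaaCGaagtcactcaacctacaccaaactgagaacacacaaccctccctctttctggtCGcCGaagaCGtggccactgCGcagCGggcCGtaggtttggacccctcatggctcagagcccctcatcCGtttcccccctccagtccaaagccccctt
C4orf37 upstream: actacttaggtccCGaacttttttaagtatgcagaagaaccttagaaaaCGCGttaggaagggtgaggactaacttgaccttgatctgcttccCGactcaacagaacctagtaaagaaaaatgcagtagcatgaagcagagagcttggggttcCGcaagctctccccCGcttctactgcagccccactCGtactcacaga

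The next group is from WDR5 peaks under a narrow mark: chr9:72653097-72653296 upstream of MAMDC2 (1 CpG) and chr18:18512924-18513123 downstream of ROCK1 (6 CpG). The MAMDC2 window carries runs of the pentamer of which simple satellite DNA is made.
MAMDC2 upstream: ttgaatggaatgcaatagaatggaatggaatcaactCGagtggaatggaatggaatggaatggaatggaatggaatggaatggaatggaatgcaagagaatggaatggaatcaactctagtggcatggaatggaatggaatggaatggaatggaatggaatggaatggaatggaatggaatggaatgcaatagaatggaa
ROCK1 downstream: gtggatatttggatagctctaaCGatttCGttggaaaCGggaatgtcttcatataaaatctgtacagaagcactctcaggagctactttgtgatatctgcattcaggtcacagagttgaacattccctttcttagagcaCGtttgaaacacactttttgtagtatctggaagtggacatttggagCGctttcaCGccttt

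The last group is from WDR5 peaks with no THP-1 mark on them: chr9:33265077-33265276 at the start of CHMP5, part of it coding exon (12 CpG), and chr2:99010580-99010779 in an intron of CNGA3 (3 CpG).
CHMP5 start: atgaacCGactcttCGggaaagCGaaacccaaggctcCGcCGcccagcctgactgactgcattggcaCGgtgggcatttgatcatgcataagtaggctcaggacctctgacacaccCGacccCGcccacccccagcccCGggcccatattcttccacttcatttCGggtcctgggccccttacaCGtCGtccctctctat
CNGA3 intron: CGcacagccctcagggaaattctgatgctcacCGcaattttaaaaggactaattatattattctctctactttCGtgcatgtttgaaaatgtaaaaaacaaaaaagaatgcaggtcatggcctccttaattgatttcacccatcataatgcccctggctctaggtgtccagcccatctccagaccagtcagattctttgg

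H3K4me3 was listed at THP-1 WDR5 genes about as often as at genes in general. An exon-flagged mark was found for 201 of 316 symbols (63.6%, interval 58.2 to 68.7) vs 66.2% of all 18576 symbols. The interval holds the value for all symbols. Any line was found for 285 symbols (90.2%, interval 86.4 to 93.0) vs 93.9% of all symbols, which lies above the interval. A symbol with no THP-1 mark enters the set only through a WDR5 peak or an RS4;11 mark. The 93.9% is therefore partly fixed by how the set was formed. Among the 873 RS4;11 WDR5 symbols the exon-flagged share in the THP-1 list was 65.1%. Restricted to symbols with a coding (NM) transcript, it was 71.5% of 274 THP-1 WDR5 symbols vs 69.7% of 16785 symbols in all. With the same restriction, any line was found for 93.1% of the 274 vs 94.8% of the 16785. Among all annotated protein-coding genes, listed or not, the exon-flagged share was lower, at 57.7% of 20149.

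THP-1 WDR5 genes were long. Their median length was 61.3 kb vs 28.3 kb for all symbols, over the 282 and 18146 symbols found in the annotation. The medians by class were 63.8 kb in the exon-flagged class, 107 kb in the class with other lines only and 45.5 kb in the class with no line. A long gene has more room for a peak within it or near it, so the share marked was also taken by length. Below 10 kb it was 57.4% of 54 WDR5 symbols vs 53.1% of all symbols. At 30 to 100 kb it was 81.2% of 69 vs 73.2%. At 100 to 300 kb it was 64.4% of 59 vs 71.9%. The interval of the WDR5 symbols held the value for all symbols in each of the 5 length groups.

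**Figure D2:**
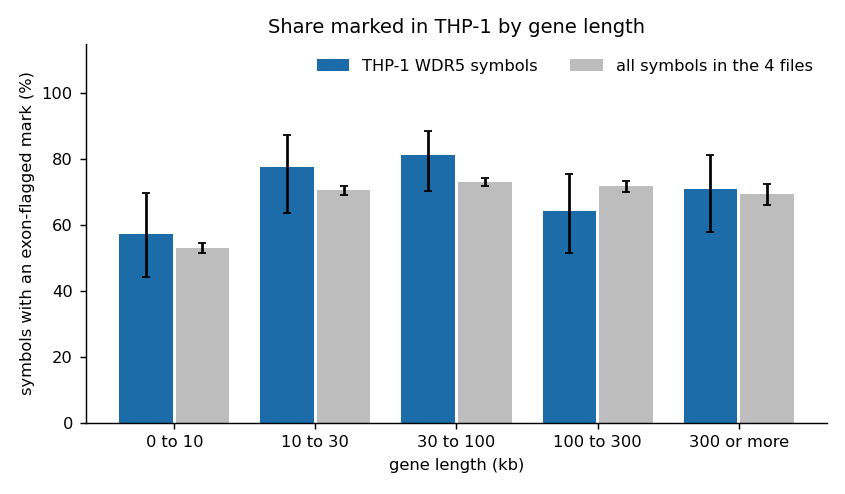
Percentage of symbols with an exon-flagged THP-1 H3K4me3 line (vertical axis) by gene length in kb, for THP-1 WDR5 symbols (blue) and all symbols in the 4 lists (grey), with 95% Wilson intervals. At 300 kb or more the values were 70.9% and 69.3%, and the intervals of both bars overlap in every length group.

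The share of symbols with the WDR5 peak inside the gene was highest in the exon-flagged class, with intervals that overlap. It was in an exon or intron for 107 of 201 exon-flagged symbols (53.2%, interval 46.3 to 60.0), 33 of 84 with other lines only (39.3%, interval 29.5 to 49.98) and 10 of 31 with no line (32.3%, interval 18.6 to 49.9). Read the other way, 107 of 150 symbols with the peak inside the gene had an exon-flagged mark (71.3%, interval 63.6 to 78.0) vs 94 of 166 with the peak outside (56.6%, interval 49.0 to 63.9). With distinct peaks in place of symbols, the shares inside the gene were 69.4% of 160 peaks, 64.3% of 42 and 47.8% of 23. Clusters of small genes that share 1 peak lie outside the transcript and weigh on the count of symbols, as 13 SNAR genes at 1 peak and 8 SNORD genes at another do.

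**Figure D3:**
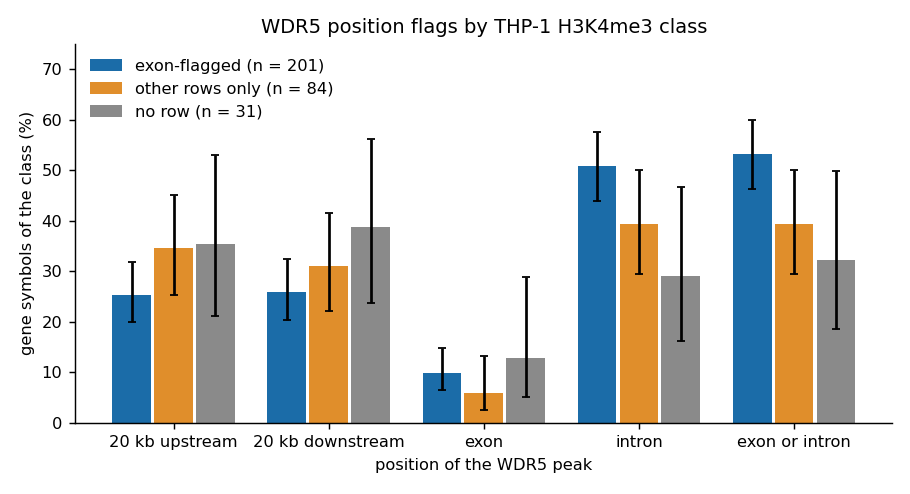
Percentage of the gene symbols of each class (vertical axis) with a WDR5 peak up to 20 kb upstream, up to 20 kb downstream, in an exon, in an intron, or in either, with 95% Wilson intervals. Intron flags were 50.7% in the exon-flagged class (blue), 39.3% with other lines only (orange) and 29.0% with no line (grey), and a symbol can carry several flags.

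Intron was the most frequent flag. An intron flag was given to 144 symbols (45.6%), an upstream flag to 91 and a downstream flag to 90. An exon flag was given to 29 (9.18%), of which 20 were exon-flagged for the mark, 5 had other lines only and 4 had no line. Both an upstream and an exon flag for 1 transcript, which is how a span of the start was read from the lists, were given to 3 symbols: C6orf57, a mitochondrial complex II assembly factor now named SDHAF4, LOC100130581 and CHMP5, a subunit of the ESCRT machinery that sorts membrane proteins. By the start sites of the gene annotation, 5 of the 219 peaks that could be placed held the nearest start of a protein-coding transcript. They were those of C6orf57, CHMP5, RPL35A, CHRNB1 and WDR74. A transcript start can lie inside the gene. At CHRNB1, on the plus strand, the gene begins at 7348380 and the peak at 7358540.

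Even where a gene had both, the WDR5 peak and the gene's own exon-flagged mark seldom shared a base. The gene's own exon-flagged mark spanned its transcript start in 180 of 201 symbols (89.6%), beside 87.4% of 12304 exon-flagged symbols in all. It shared a base with the WDR5 peak in 12 of 201 (5.97%, interval 3.45 to 10.1). A THP-1 mark of any flag or gene shared a base with the WDR5 peak for 38 of the 201 (18.9%). To the own exon-flagged mark, the median distance was 20782 bp, with quartiles of 10052 and 57932 bp. The mark was within 5000 bp for 30 symbols, within 20000 bp for 98 and within 50000 bp for 144. The median was 43332 bp for peaks inside the gene and 15363 bp for peaks outside it. Marks of other flags lay closer. To the gene's own mark of any flag, the median for the 201 symbols was 11696 bp, with quartiles of 2035 and 24677 bp.

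The largest distances were in very long genes with an intronic WDR5 peak. It was 1151164 bp in FHIT, which spans a common fragile site, 1029150 bp in CDH12, a cadherin of neurons, and 861620 bp in NKAIN2. EBF1, the B-lineage transcription factor, had its WDR5 peak in an intron 191919 bp from the mark at its start. At the near end, LYN, a SRC-family kinase of blood cells, had a WDR5 peak upstream of the gene and 2412 bp from its mark. Among regulators of chromatin and hematopoiesis, chosen after the values were seen, the distance was 68501 bp for MECOM, a transcription factor of blood stem cells. It was 44051 bp for CTCF, which organizes chromatin loops, and 18915 bp for SMARCB1, a core subunit of the SWI/SNF remodeling complex. These are distances to the gene's own exon-flagged mark. The SMARCB1 peak itself lay under another mark of 2256 bp, and the nearest mark to the CTCF peak was 66 bp away.

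The distance to the nearest THP-1 H3K4me3 peak of any gene was also taken, with each WDR5 peak put in the highest class of its symbols. The median was 14032.5 bp for 160 exon-flagged peaks, 13568 bp for 42 peaks with other lines only and 216200 bp for 23 peaks with no line. In the last class the smallest distance was 32360 bp, which the class itself partly fixes, because a mark within 20 kb of the gene would have given it a line. The peaks had about the same width, with medians of 424 bp, 440 bp and 365 bp. Their GC content was also close, with medians of 40.1%, 37.2% and 39.0%.

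**Figure D4:**
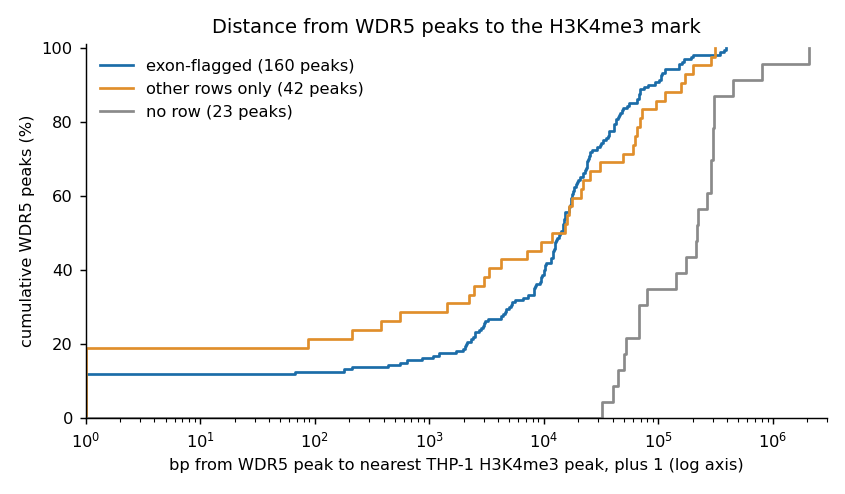
Cumulative percentage of WDR5 peaks (vertical axis) by the distance in bp to the nearest THP-1 H3K4me3 peak, plus 1, on a log axis, for 160 exon-flagged peaks (blue), 42 with other lines only (orange) and 23 with no line (grey). The blue and orange curves cross near their medians of 14032.5 and 13568 bp, and the grey curve begins at 32360 bp.

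Of the 225 WDR5 peaks, 27 (12%, interval 8.38 to 16.9) shared a base with a THP-1 H3K4me3 peak. They were 19 of 160 in the exon-flagged class and 8 of 42 with other lines only. The 0 of 23 with no line is largely fixed by the class itself. A mark on such a peak would lie near enough to the gene to give it a line. How often other positions of the genome share a base with a mark was not worked out, so these shares have no base rate. The 27 fell into 2 kinds by the width of the mark. In 13 the mark was 1000 bp or wider (1153 to 3884 bp) and all 13 were in the exon-flagged class. In the other 14 the mark was 303 to 972 bp wide, 6 in the exon-flagged class and 8 with other lines only.

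Most of the 13 peaks under a wide mark lay near an annotated transcript start. Of the 13, 11 were within 2000 bp of one vs 12 of the 194 WDR5 peaks with no mark that could be scored. Their median GC content was 53.03% vs 37.98%, with 3.41 CpG per 100 bp vs 0.586. These peaks were picked by the mark, and the mark spanned the start for 87.4% of 12304 exon-flagged symbols in all. Nearness to a start is therefore partly fixed by that choice, and its part in the GC content was not tested. The RS4;11 H3K4me3 list had a mark on 9 of the 13, all 9 of them 1000 bp or wider, and the RS4;11 WDR5 list had a peak on 0 of 13. None had a second copy in the reference genome.

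They included housekeeping and signaling genes. The peak of RPL35A, a protein of the large ribosomal subunit, was 47 bp upstream of a transcript start by its centre. It lay under the widest of these marks (3884 bp), which also covered IQCG. At POLR2E, a subunit shared by the RNA polymerases, the mark was 2306 bp wide. The peak there lay 765 bp downstream of a transcript start, with GPX4, the lipid peroxide reductase, as a neighbor. At DENND5A, a regulator of RAB GTPases whose sequence is shown above, the peak lay 362 bp downstream of a transcript start, under a mark of 1958 bp. CHCHD1, a mitochondrial ribosomal protein, had the peak 601 bp upstream under a mark of 2970 bp, with SEC24C, a COPII coat protein, beside it. At CHRNB1, a subunit of the muscle acetylcholine receptor, the mark was 2019 bp wide.

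Further members of this kind were C6orf57, C4orf37, RNF122, a ubiquitin ligase, and CHCHD10, a mitochondrial protein, with marks of 2248, 1987, 3097 and 2256 bp. LOC100130581 had a WDR5 peak of 868 bp under a mark of 2550 bp. At ROBO1, the receptor for SLIT guidance cues, the peak was in the first part of the gene under a mark of 1263 bp, and the nearest RS4;11 mark was 245777 bp away. A peak of 264 bp between PPM1M and TWF2, an actin-binding protein, was under a mark of 1509 bp and also named TLR9, a receptor for CpG DNA, and WDR82, a subunit of the SET1 complexes. WDR82's own mark was 30754 bp away. C18orf55, now named TIMM21, a mitochondrial import protein, had only 64 bp of its peak under the mark, and its own exon-flagged mark was 22075 bp away.

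The 14 peaks under a narrow mark included none at an annotated promoter. Of the 12 on sequence with annotated genes, 0 were within 2000 bp of a start, and 2 could not be scored. Of all 14, 8 shared a base with an RS4;11 WDR5 peak, as 5 of 198 peaks with no mark did. The RS4;11 H3K4me3 list had a mark on 9 of them, none of 1000 bp or more. Of the 14, 4 had 2 or more copies in the reference genome (95% identity or more along 80% or more of its length) and 2 were on unplaced contigs. The median GC content was 46.0% with 1.75 CpG per 100 bp. Counts in repeated sequence are uncertain, since the authors kept uniquely aligned reads only. The part that repeated sequence had in these peaks was not tested.

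**Figure D5:**
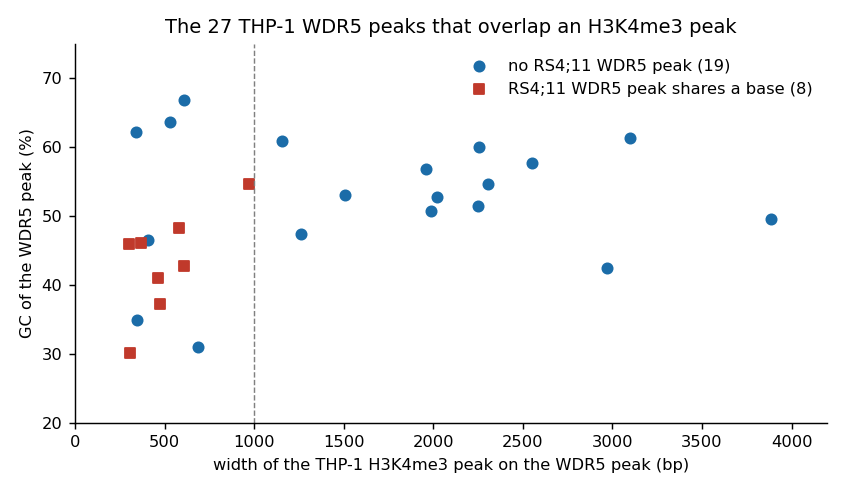
The 27 WDR5 peaks that share a base with a THP-1 H3K4me3 peak, by the width of the H3K4me3 peak in bp (horizontal axis) and the GC percentage of the WDR5 peak (vertical axis), with red squares where an RS4;11 WDR5 peak shares a base. All 8 red squares lie left of the dashed line at 1000 bp.

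Several of the 14 carry known kinds of repeat. Both MIR1977 peaks, chr1:565261-565843 and chr1:569573-570332, matched the mitochondrial genome at 98.3% and 98.2% identity. The intronic PCBD2 peak, with no mark on it, matched at 95.01%. The DUSP5P peak had 17 copies and the RN5-8S1 peak, next to a ribosomal RNA gene on an unplaced contig, had 2. The repeat GGAATGGAAT, searched on both strands in the central 200 bp, was in 5 of 225 THP-1 WDR5 peaks (2.22%): SENP5, MAMDC2, DCC, DEFB115 and PCSK5. It was in 2 of 703 RS4;11 WDR5 peaks (0.284%), those of SENP5 and MAMDC2, and in 16 of 26503 THP-1 H3K4me3 peaks (0.0604%). The rest of the narrow kind were near DGCR6 and PRODH, NBR1 and TMEM106A, and DUX4 and 4 LOC genes, and at BTRC, FMNL2, GLI2, FCHO2 and downstream of ROCK1. BTRC is the substrate receptor of a ubiquitin ligase, and its WDR5 peak was intronic, 9233 bp from its own exon-flagged mark. GLI2, a transcription factor of Hedgehog signaling, had 106 bp of its intronic peak under a mark of 532 bp and no exon-flagged mark.

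The 29 symbols with a WDR5 peak in an exon were mostly marked elsewhere. Of the 20 with an exon-flagged mark, 5 shared a base with it: C6orf57, CHRNB1, LOC100130581, ROBO1 and RPL35A. MST1 and POLR3C, a subunit of RNA polymerase III, had the mark 2745 and 2922 bp away. In the remaining 13 it was 22210 bp away in SPG21 to 282410 bp away in PCSK5, a proprotein convertase. These 13 included AKT2, a kinase of insulin signaling (43332 bp), MME, the endopeptidase known as CD10 (36784 bp), ECD, ANKRD24, FRMPD1, PKHD1L1, ZBTB40, DZIP3, TRANK1, NBPF1 and a symbol written as 15-Sep, which its accessions give as SELENOF. The 5 with other lines only were CHMP5, RPL41, DENND4C, INSRR and LPA. The 4 with no line were BEST3, SLC22A2, TRIP12 and REXO1L1.

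There were 12 WDR5 peaks within 2000 bp of an annotated transcript start with no THP-1 mark on them. Not all of these starts are the start of the gene. At CTCF, on the plus strand, the gene begins at 67596370 and the peak at 67643021. The peaks at SEC31A and CTCF were flagged as intronic. The peak at the start of CHMP5 and upstream of BAG1, a co-chaperone that counters cell death, had its nearest THP-1 mark 24006 bp away. The RS4;11 list had a mark of 3492 bp on it, and both genes are also in the RS4;11 WDR5 list, though with no peak in common. A peak 133 bp from a transcript start of WDR74 by its centre had its nearest mark 8161 bp away. That was the own exon-flagged mark of both WDR74 and STX5. The peak in RPL41, a protein of the large ribosomal subunit, had its nearest mark 9285 bp away. At SEC31A, a COPII coat protein, it was 23173 bp away, and at CTCF it was 66 bp away with a width of 690 bp. At SULT6B1 and CEBPZ the THP-1 mark lay 212 bp away, and an RS4;11 mark of 3460 bp abutted the peak with no shared base. As for the housekeeping genes above, a mark that is not listed is not shown to be absent.

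The 31 symbols with no THP-1 H3K4me3 line were of several kinds. By the flags, 11 had the WDR5 peak upstream, 12 downstream, 9 in an intron and 4 in an exon. Genes with tissue-limited roles were among them, such as CNGA3, a channel of cone photoreceptors, SLC22A2, a kidney cation transporter, TRHR, the receptor of thyrotropin-releasing hormone, DSCAM, a neural adhesion molecule, COL25A1, a membrane collagen of neurons, HAVCR1, DEFB115, a beta-defensin, LYZL2, SPANXN2, FSIP2, IGSF5, IQCJ and BEST3. Of those with the peak inside the gene, COL25A1 (494028 bp), IQCJ (303380 bp) and TRIP12 (159403 bp) were the longest.

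Widely expressed genes were there too: BAG1, MSL2, a subunit of a histone acetyltransferase complex, TRIP12, a ubiquitin ligase, SLC3A2, the heavy chain of CD98 amino acid transporters, and C8orf30A, now named HGH1. RS4;11 cells had an exon-flagged mark for 3 of the 31, BAG1, COL25A1 and SLC3A2, and other lines for 4: MSL2, C8orf30A, DSCAM and IQCJ. For 24 neither list had a line. The remaining symbols were the pseudogenes REXO1L2P and CRSP8P, REXO1L1, FLJ36000, MIR1826, MIR1974 and 7 SNORD genes.

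Symbols with noncoding transcripts only made up 42 of the 316, at 28 peaks. An exon-flagged mark was listed for 5 of them, other lines for 25 and no line for 12, beside 33.5% exon-flagged for 1791 noncoding symbols in all. Of these, 14 were SNAR genes, small NF90-associated RNAs, all with other lines only. A peak of 835 bp at chr19:50639096-50639930, with 17 copies in the genome, named 13 of them. The 8 SNORD genes lie within the SNHG1 host gene and shared the peak at WDR74. SNORD22 and SNHG1 had other lines, the 7 others none.

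Few genes had several WDR5 peaks. REXO1L1 and REXO1L2P, a tandem array, shared 5, of which 4 had 8 to 12 copies in the genome. C5orf36, LOC283788, MIR1977, RN5-8S1, ROCK1 and SPON1 had 2 each. The widest WDR5 peak, 2801 bp near MIR1826, had no mark within 2091292 bp. The next were 1730 bp near ROCK1, a kinase of the actin cytoskeleton, 87 bp from a mark, 1051 bp near NBR1 and TMEM106A under a narrow mark, 1026 bp in NBPF1, and 898 bp at both MAMDC2 and REXO1L1. A few peaks were nearly free of G and C, with 3.27% at S1PR1, a receptor for sphingosine 1-phosphate, 3.94% at SPON1, 4.71% at IFT57, 5.27% at PARP8 and 7.44% at DOCK5. None of these 5 had a mark on it.

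The same symbols were then taken in RS4;11 cells. An exon-flagged RS4;11 mark was listed for 161 of 316 symbols (50.9%, interval 45.5 to 56.4) vs 60.0% of all symbols, which lies above the interval. Noncoding symbols, 42 of the 316 and 1791 of the 18576 in all, were not set apart in this comparison. Symbols that share a peak weigh on it too. Of the 18576 symbols, 16329 have an RS4;11 H3K4me3 line, whereas THP-1 WDR5 symbols enter with or without a mark. The difference is therefore partly fixed by how the set was formed. By THP-1 class, the RS4;11 mark was listed for 144 of 201 (71.6%), 14 of 84 (16.7%) and 3 of 31 (9.68%). In the exon-flagged class 40 symbols had other RS4;11 lines only and 17 had no line. These 17 included CDH8, a cadherin, SIX2 and WNT7A, developmental regulators, with THP-1 marks of 2036, 3419 and 2861 bp, along with MAMDC2, HS6ST3, GPR37, DKK3, RNF180 and DZIP3. The 14 with other THP-1 lines but an exon-flagged RS4;11 mark included CHMP5, TLR9, PPM1M, RFX3, FAF1 and VPS13B.

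RS4;11 WDR5 peaks named 39 of the 316 symbols (12.3%, interval 9.16 to 16.4) vs 4.7% of all symbols. By class these were 22 of 201 (10.9%), 13 of 84 (15.5%) and 4 of 31 (12.9%). The longer genes of the THP-1 WDR5 list were not matched for in this comparison. A WDR5 peak shared by position was rarer. It was found for 13 of the 225 peaks, and they named 18 symbols, of which PRODH alone is not in the RS4;11 WDR5 list itself. Those 13 peaks were the 8 under a narrow mark, near MIR1977 (2 peaks), DGCR6, NBR1, ROCK1, SENP5, MAMDC2 and DUX4, and 5 with no mark on them, near ROCK1, PCBD2, REXO1L1, LOC26080 and RN5-8S1. None was at a promoter under a wide mark.

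Lists of genes tied to WDR5, to MLL or to lineage were counted beside the share of all symbols that are THP-1 WDR5 genes, 316 of 18576 or 1.7%, and the 66.2% of all symbols exon-flagged in THP-1. With lists this short, that share gives about 1 gene or none in most, so nothing is read from their counts. Of 23 genes of WDR5 and the H3K4 methyltransferase complexes, 16 had an exon-flagged mark in THP-1 and 18 in RS4;11, and WDR82 alone was a THP-1 WDR5 gene. Of 16 MLL fusion targets, 7 were exon-flagged in THP-1 and 2 in RS4;11, and 0 were THP-1 WDR5 genes, beside 3 in the RS4;11 WDR5 list. Of the 6 genes of the study's quantitative ChIP, 5 were exon-flagged in THP-1 and 6 in RS4;11. LYN alone was a THP-1 WDR5 gene, and the other 5 (BCL9, RAB28, CD93, MED24 and RBM22) were in the RS4;11 WDR5 list. Of 74 ribosomal protein genes, RPL35A, RPL41 and RPS6 were THP-1 WDR5 genes. Of the 12 B-lineage markers EBF1 was, and 0 of the 15 monocyte and granulocyte markers.

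The letters of the known factor motifs searched were less frequent under these peaks than under THP-1 H3K4me3 peaks. CACGTG, the E-box of MYC and related factors, was in the central 200 bp of 1 of 225 WDR5 peaks (0.444%), that of HS6ST3, vs 3.17% of 26503 THP-1 H3K4me3 peaks, counting both strands. CCGGAA, the core of ETS factor sites, was in 5 of 225 (2.22%) vs 7.85%. By overlap, CCGGAA was in 1 of 13 peaks under a wide mark (7.69%), 1 of 14 under a narrow mark (7.14%) and 3 of 198 with no mark (1.52%). The 5 were at CHRNB1, INSR, FOXP2, RN5-8S1 and the start of CHMP5. Both motifs hold a CpG, and neither the GC nor the CpG content of the 2 sets of peaks was matched.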

How the data were processed

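WDR5 and H3K4me3 ChIP-seq of THP-1 and RS4;11 cells were analyzed, 1 sample each. According to the methods, the authors sonicated the chromatin for WDR5, digested it with micrococcal nuclease for H3K4me3, aligned reads to hg19 with Eland (unique alignments, up to 2 mismatches) and called peaks with MACS at default parameters. The submitters' processing notes name CASAVA 1.7 and 1.8.2. The version of MACS and the control are not given in the sources used here. The deposited lists hold peak positions and yes or no flags for each peak and transcript (20 kb upstream, 20 kb downstream, exon, intron), made by the authors with their own script, and no peak farther than 20 kb from a transcript. A few items are not reported here. They hold no counts, so no depth and no precision of a peak is known. All columns of per-sample values were used (0 left out).

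Symbols were joined as written between the lists. Positions were read as 1-based. Gene models were those of GENCODE release 44 on GRCh37, in which 89.2% of THP-1 WDR5 symbols and 97.7% of all symbols were found, older names included. Start sites were those of every protein-coding transcript, so a start can lie inside a gene. An overlap is 1 shared base. Copies of a peak were found with blastn 2.17.0 (95% identity, 80% of the peak). Python 3.11.15, pandas 2.3.3, scipy 1.17.1, pysam 0.24.0 and matplotlib 3.10.9 were used, and the scripts were tested on simulated lists. Shares have Wilson intervals, which cover counting error only and not variation between cultures. No test was run, because each group is 1 sample.

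Members, gene lists and motifs were chosen with earlier results of these data known. The genes named were those whose WDR5 peak shares a base with a THP-1 mark or with an RS4;11 WDR5 peak, those with an exon-flagged WDR5 line, those with 2 or more WDR5 peaks, those of the 5 widest peaks, the longest genes of the class with no line, and members of the lists. Where a set held over 30 symbols, the 15 with the widest WDR5 peak could be named. Others are background examples chosen after their values were seen.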

Additional observations from a re-analysis of the deposited data

How the results depend on the processing

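No paired analysis was possible because each group is 1 sample, and no replicate could be left out. Of 46 values under alternatives, 28 stayed within the interval of the main value, or within 1.5 times of a main count, and 18 moved. The exon-flagged share of THP-1 WDR5 symbols (63.6%) became 72.8% with intron flags counted, 90.2% with any line, 71.1% per distinct WDR5 peak, 71.3% with the WDR5 peak inside the gene and 71.5% with coding (NM) transcripts only. It stayed at 58.2% with wide marks only, 61.1% by transcript, 64.6% without unplaced contigs and 66.7% with 1 symbol a peak. The share for all symbols (66.2%) became 65.1% of RS4;11 WDR5 symbols, 69.0% of RS4;11 H3K4me3 symbols, 57.7% of annotated protein-coding genes, 93.9% with any line and 61.0% with wide marks. The share of symbols with the WDR5 peak inside the gene became 69.4% per peak in the exon-flagged class, and 64.3% per peak or 50.4% by transcript with other lines only. With any RS4;11 line, the RS4;11 share became 91.5% in the exon-flagged class and 78.6% with other lines only.

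Alternatives added after the data were seen moved the 8 overlapping peaks with other lines only to 4 without multi-copy peaks, 0 with wide marks only and 4 without RS4;11 WDR5 peaks. The 19 of the exon-flagged class became 13 to 26 over all alternatives. Depth limits could not be set, since the lists give no counts.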
